A study of Rattus norvegicus with 3 samples.

Results

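Genes of amino acid breakdown, the urea cycle and folate metabolism were followed in liver RNA of spontaneously hypertensive rats (SHR) and Wistar Kyoto rats (WKY). The list names 40 genes by symbol, taken from textbook pathways: the urea cycle, the breakdown of phenylalanine and tyrosine, of tryptophan, of methionine and other sulfur amino acids, of the branched-chain amino acids, the glutamate and transaminase reactions, and the folate enzymes Aldh1l1 and Shmt1. The genes of the list were chosen with earlier results of these data known. A probe was found for 38 of the 40, by current or former symbol, among 5654 genes with a ratio on the first array. Hgd, the homogentisate dioxygenase of tyrosine breakdown, and Shmt1, the cytosolic serine hydroxymethyltransferase, had no probe under these names and are not analysed here.

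Liver breaks down most amino acids. Transaminases pass the amino group to glutamate, glutamate dehydrogenase frees it as ammonia, and the urea cycle of periportal hepatocytes turns the ammonia into urea, while the carbon skeletons feed glucose, ketone body and energy metabolism. Methionine, serine and folate reactions form the one-carbon network, in which Aldh1l1 takes formyl groups off folate and which also supplies methyl groups.

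SHR is an inbred strain, bred from Wistar Kyoto stock, in which blood pressure climbs with maturation, and WKY is its usual normotensive reference strain. All rats were male, and no treatment or engineered allele is named. The 3 arrays compared SHR of 1 month against pooled WKY of 1 month, SHR of 3 months against pooled WKY of 3 months, and SHR of 3 months against SHR of 1 month. Each comparison is therefore 1 array with 2 colours, without a replicate and without a dye swap, and no test could be made; strain or age and the colour channel cannot be told apart on any 1 array. On the SHR age array the file headers and the labelled dyes disagree on which column holds which age. The direction used is that of the headers, 3 months over 1 month, and every sign on that array would turn if the dye labels were right. Fewer cells of a type and less RNA per cell cannot be told apart in whole liver.

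All 10 hepatocyte markers had a ratio on each array. Their median log2 ratio was -0.06 at 1 month and -0.24 at 3 months for SHR over WKY, and -0.25 for SHR of 3 months over 1 month. Albumin (Alb) was the lowest of them at 3 months and on the SHR age array, with log2 ratios of -0.15, -1.01 and -1.10 in that order. The zonal markers overlap the list itself, since 8 of 9 measured periportal markers and 2 of 7 measured pericentral markers are members. The periportal marker outside the list, Cyp2f4, stood at 0.10, 0.09 and 0.11, and the 5 pericentral markers outside it had medians of 0.05, 0.12 and 0.04. The 4 measured lymphocyte markers had medians of -0.10, -0.12 and -0.21, and the 1 macrophage marker measured had -0.28, -0.46 and -0.29. The 5 markers of stellate cells and matrix had medians of -0.06, -0.20 and -0.31 and did not move together. Des, desmin, was the lowest at -0.46, -0.41 and -0.60. Col1a1 was at -0.28, -0.36 and -0.44 and Col3a1 at -0.06, -0.20 and -0.31. Acta2 was at 0.12, -0.01 and -0.09 and Lrat at -0.01, 0.02 and 0.18. The kidney markers also gave a signal, with Umod at 0.13, 0.10 and 0.33, Slc12a1 at 0.42, 0.09 and -0.91 and Kap at -0.12, 0.25 and 0.40. The part of any of these in the results was not tested.

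Promoter sequences of RefSeq (rat build GRCr8) covered 32 of the 38 measured genes, each from 250 bases before to 50 bases after the gene's start. Those of the member with the highest ratios, the member with the lowest, and the tyrosine transaminase gene Tat, the classic hormone-induced gene of amino acid breakdown in liver, are printed here because the ratios of these 3 genes are described first or most fully. They lie at chr4:124616970-124617269, chr3:48188036-48188335 and chr19:54856354-54856653, all on the plus strand. Capitals mark the letters CCAAT or GGGCGG on either strand, and in Kynu also a match to TTGCNNAA. None of the capital stretches overlap.
Aldh1l1: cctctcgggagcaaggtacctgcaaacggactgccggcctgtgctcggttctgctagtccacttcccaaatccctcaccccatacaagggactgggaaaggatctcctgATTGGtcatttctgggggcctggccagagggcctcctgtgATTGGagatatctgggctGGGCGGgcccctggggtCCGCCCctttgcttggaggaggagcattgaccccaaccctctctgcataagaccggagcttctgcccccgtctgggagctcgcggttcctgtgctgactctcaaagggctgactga
Kynu: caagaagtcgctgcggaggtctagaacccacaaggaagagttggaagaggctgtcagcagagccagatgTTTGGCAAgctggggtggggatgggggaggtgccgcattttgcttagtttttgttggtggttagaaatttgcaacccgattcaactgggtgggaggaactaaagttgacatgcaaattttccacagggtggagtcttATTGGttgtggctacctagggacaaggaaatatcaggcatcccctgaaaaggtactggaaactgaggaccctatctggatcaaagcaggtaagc
Tat: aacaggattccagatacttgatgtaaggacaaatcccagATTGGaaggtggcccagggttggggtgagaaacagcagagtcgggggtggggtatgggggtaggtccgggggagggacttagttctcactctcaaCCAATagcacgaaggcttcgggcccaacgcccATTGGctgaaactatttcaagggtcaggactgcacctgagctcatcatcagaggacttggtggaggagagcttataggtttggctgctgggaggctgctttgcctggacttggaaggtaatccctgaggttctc
The letters CCAAT, on either strand, stood in 16 of 32 member promoters (50%) against 37.5% of 33469 promoters of the same length. The GC box letters GGGCGG stood in 18 of 32 (56.2%) against 33.1%, and the median GC content of the member promoters was 59.2% against 51.7%. The C/EBP letters TTGCNNAA stood in 3 (9.38%) against 10.6%, the TATA box letters TATAAA in 4 (12.5%) against 14.2%, the cAMP half-site TGACG in 5 (15.6%) against 21.2% and the glucocorticoid receptor half-site TGTTCT in 5 (15.6%) against 20.7%. The HNF4 letters CAAAGTCCA were found in the promoters of Cps1 and Kmo (6.25%) against 0.391%. The full HNF1 motif stood in 0 of 32, against 1 of 33469 promoters (0.00299%), and is too rare for this count to tell anything. A match is a stretch of letters, not a bound site.

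Aldh1l1 was the member with the highest ratio on both strain arrays, and also on the SHR age array in the direction of the headers. In the direction of the dye labels its log2 ratio there would be -0.86, the lowest. It encodes cytosolic 10-formyltetrahydrofolate dehydrogenase, an abundant hepatocyte enzyme that turns formyltetrahydrofolate into tetrahydrofolate and carbon dioxide. Its normalised intensity, in scanner units after background correction and normalization within the array, was 54241 in SHR and 36932 in WKY at 1 month. At 3 months it was 50372 in SHR and 24079 in WKY. On the SHR age array it was 45551 at 3 months and 25123 at 1 month. Such units compare within an array, not between arrays, because background correction and normalization were run on each array alone. Both spots of the probe gave a higher signal in SHR than in WKY at both ages, and a higher signal at 3 months than at 1 month. The log2 ratio of SHR over WKY was 0.55 at 1 month (spots 0.52 and 0.59) and 1.06 at 3 months (spots 1.04 and 1.09), a 1.47-fold and a 2.09-fold difference. The log2 ratio of SHR of 3 months over 1 month was 0.86, a 1.81-fold difference. Over 12 alternative settings these ratios ranged between 0.39 and 1.50, between 0.88 and 1.70, and between 0.80 and 1.79.

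The raw signal of Aldh1l1 was near the top of the scale. In the second channel it was 63239 units at 1 month, 96.5% of the highest value on that array and behind 8 genes, and 83.9% and 80.4% of the highest value on the 3-month and SHR age arrays. RNA of the same strain and age was read on different arrays, with the ages on the SHR age array taken from the headers. In the direction of the dye labels the ages on that array would be exchanged. SHR of 1 month gave a raw signal of 63239 in the second channel of the strain array and 22792 in the first channel of the SHR age array. SHR of 3 months gave 54888 and 50207 in the second channel of the 3-month and SHR age arrays, and WKY gave 31686 and 21676 in the first channel at 1 and 3 months. The second channel was the brighter on every array, also on the SHR age array, where both channels held SHR. The part of the channel in the ratio was not tested.

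Kynu was the member with the lowest ratio at 1 month and, in the direction of the headers, on the SHR age array, where it would be the highest at 1.05 in the direction of the dye labels. It encodes kynureninase, which cleaves kynurenine and 3-hydroxykynurenine on the way from tryptophan to NAD. Its raw signal was 70.2 in SHR and 247.5 in WKY at 1 month, over local backgrounds of 44.9 and 44.1. At 3 months it was 67.7 in SHR and 234.1 in WKY, over backgrounds of 45.8 and 38.8. On the SHR age array it was 66.4 at 3 months and 214.9 at 1 month, over backgrounds of 48.3 and 39.1. The second channel was low and the first channel high on all 3 arrays. By the headers, SHR of 1 month read 70.2 in the second channel of the strain array. On the SHR age array it read 214.9, in the first channel. In the direction of the dye labels that 214.9 would belong to SHR of 3 months. What part the channel has in the ratio of Kynu was not tested.

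The log2 ratio of Kynu was -1.13 for SHR over WKY at 1 month and -1.05 for SHR of 3 months over 1 month. Over 12 alternative settings these ranged between -2.72 and -0.94 and between -4.10 and -0.95, the lowest being the authors' values in both cases. At 3 months it was -0.17, although the raw signals were close to those at 1 month. On the 3-month array the background model added 357 and 439 units to every spot in the first and second channel, against 49.1 to 54.3 units on the other arrays, and 442 spots there had a local background over 3 times the array's median. Without those spots the added amounts were 62.7 and 80.4 units and the ratio of Kynu was -0.96, and with plain background subtraction it was -1.93. The size of the ratio of Kynu on each array, and its change with age, therefore depend on how background is treated.

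**Figure D1:**
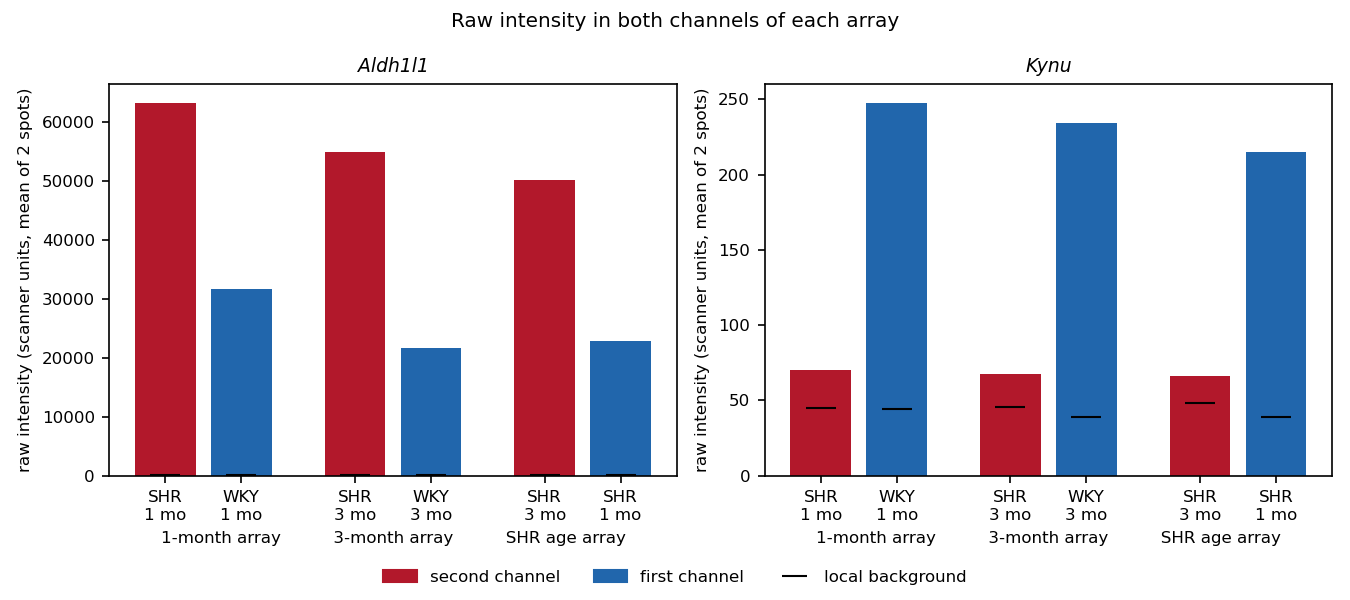
Raw intensity of Aldh1l1 and Kynu in scanner units (vertical axes, linear from 0, mean of 2 spots) in the second channel (red) and the first channel (blue) of each array, with the local background as a black line. Aldh1l1 is brighter in the second channel of all 3 arrays (63239 against 31686 at 1 month), and Kynu is brighter in the first (70.2 in SHR against 247.5 in WKY at 1 month).

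Counted at 1.5-fold, a log2 ratio of 0.585, few members stood out. At 1 month, Kynu alone was lower in SHR (1 of 38, 2.63%), where 2.42% of all genes were lower, and 0 of 38 were higher, where 0.195% of all genes were. At 3 months, Aldh1l1 alone was higher in SHR (1 of 38), where 0.605% of all genes were higher, and 0 of 38 were lower, where 1.49% were. In SHR of 3 months over 1 month, Aldh1l1 was higher, where 2.09% of all genes were, and Kynu lower, where 5.39% were. In the direction of the dye labels Aldh1l1 would be lower and Kynu higher, with the same shares of all genes turned round. Each of these counts rests on 1 gene, and the 2.63% of members lower at 1 month is near the background. Kynu and Aldh1l1 are also the 2 markers given beforehand for the list. Of the other 36 members, 0 were higher and 0 lower at 1.5-fold on any array.

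The list as a whole lay at the centre of each array. The median log2 ratio of the 38 members was 0.03 at 1 month and -0.05 at 3 months for SHR over WKY, and 0.00 for SHR of 3 months over 1 month, and the medians of all genes were -0.01 on each array. Members above 0 numbered 22, 13 and 19 of 38 in that order, against 47.5%, 47.0% and 48.8% of all genes. Between -0.2 and 0.2 lay 28, 25 and 19 members. Spots of the same probe differed with a pooled SD of 0.056, 0.046 and 0.052, and the SD over genes was 0.23, 0.22 and 0.33. On the strain arrays, which share no RNA but share the assignment of strains to channels, 23 of 38 members had the same sign at both ages (60.5%, r = 0.55 over 38 genes), against 69.6% of 5616 genes (r = 0.48).

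**Figure D2:**
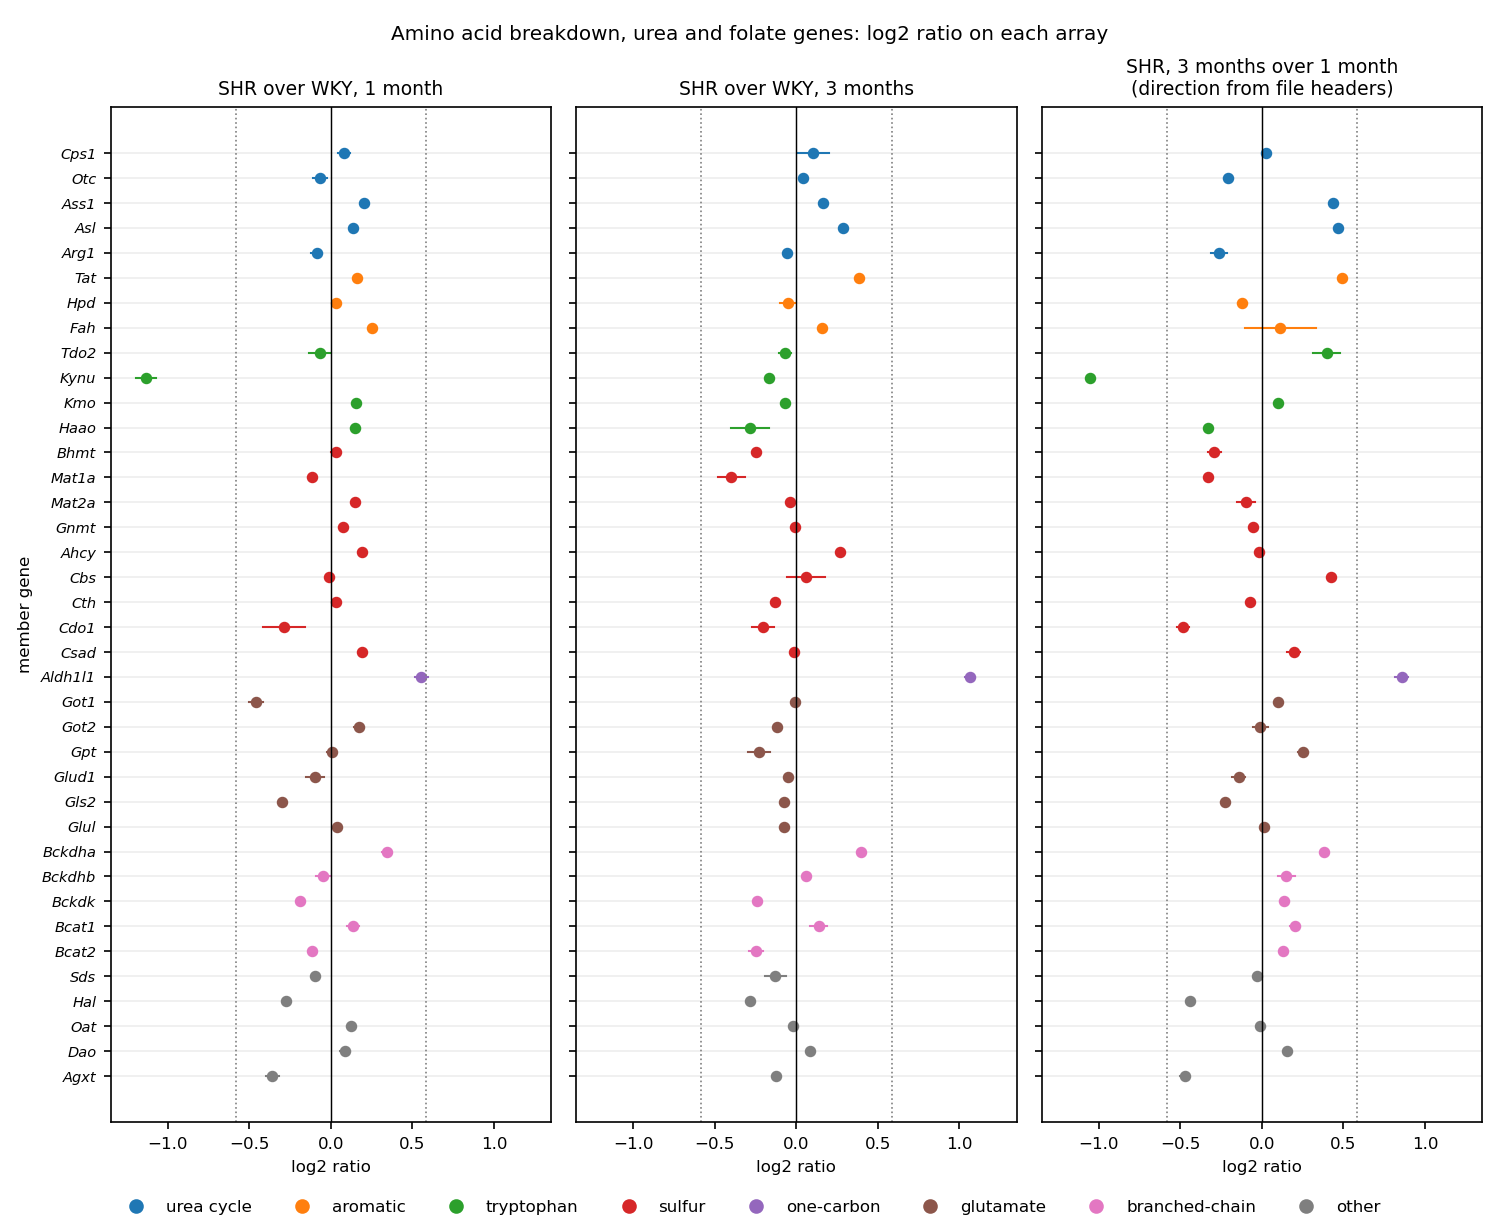
Log2 ratio (horizontal axis) of each of the 38 measured genes (rows, coloured by pathway) on the 3 arrays. Points are the mean of both spots, bars join both spots, and dotted lines mark 1.5-fold. Aldh1l1 lies at 0.55, 1.06 and 0.86 and Kynu at -1.13, -0.17 and -1.05, and the other 36 members lie inside the dotted lines.

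The urea cycle was measured in full, and its 5 enzymes differed little between the strains. Cps1, the mitochondrial enzyme that fixes ammonia as carbamoyl phosphate, had normalised intensities of 1381 in SHR and 1304 in WKY at 1 month and of 2858 in SHR and 2659 in WKY at 3 months, which are log2 ratios of 0.08 and 0.10. Otc, which joins carbamoyl phosphate to ornithine, stood at -0.07 and 0.04. Arg1, the arginase that releases urea, stood at -0.09 and -0.06. The 2 cytosolic enzymes between them were somewhat higher in SHR in the main setting. Ass1, argininosuccinate synthase, had 2153 units in SHR and 1868 in WKY at 1 month and 2139 in SHR and 1908 in WKY at 3 months, log2 ratios of 0.20 and 0.17. Asl, argininosuccinate lyase, had 848 in SHR and 771 in WKY at 1 month, a log2 ratio of 0.14. At 3 months it had 1506 in SHR and 1238 in WKY, a log2 ratio of 0.28. With median centring Asl turned to -0.13 at 1 month and Ass1 to -0.01 at 3 months. The normalised units do not compare between the ages, since the background model added a median of 357 and 439 units in the channels of the 3-month array. The raw signals of Asl were 643.0 in SHR and 1005.0 in WKY at 1 month, and 873.6 and 1155.3 at 3 months.

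With age in SHR the same pair was set apart from the other 3 enzymes. Ass1 had 1766 units at 3 months and 1304 at 1 month, a log2 ratio of 0.44, and Asl had 801 and 579 at these ages, a log2 ratio of 0.47. Cps1 was at 0.03, Otc at -0.21 and Arg1 at -0.26. Ass1 stayed above 0 on this array in 12 of 12 alternative settings, between 0.32 and 0.46, and Asl between 0.23 and 0.68.

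Of the tyrosine pathway, 3 of 4 enzymes were measured. Tat, tyrosine transaminase, takes the first step and is induced by glucocorticoids and glucagon. It had 5088 units in SHR and 4551 in WKY at 1 month, 6548 in SHR and 5022 in WKY at 3 months, and 3899 at 3 months and 2769 at 1 month on the SHR age array. Both spots were higher in SHR at each age and higher at 3 months, with log2 ratios of 0.16, 0.38 and 0.49. After Aldh1l1 this was the highest member on the SHR age array in the direction of the headers, and it would be -0.49 in that of the dye labels. Hpd, the 4-hydroxyphenylpyruvate dioxygenase of the next step, stayed at 0.03, -0.05 and -0.12. Fah, fumarylacetoacetase, the last enzyme, had log2 ratios of 0.25 and 0.16 for SHR over WKY at 1 and 3 months, and its spots on the SHR age array disagreed at -0.11 and 0.33.

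In tryptophan breakdown, Tdo2, the tryptophan dioxygenase that opens the pathway, was at -0.07 at both ages for SHR over WKY. On the SHR age array it had 442 units at 3 months and 335 at 1 month, a log2 ratio of 0.40, which ranged between 0.05 and 0.57 over 12 alternative settings. Kmo, which hydroxylates kynurenine, was at 0.15 at 1 month, -0.07 at 3 months and 0.10 with age in SHR. Haao, the 3-hydroxyanthranilate dioxygenase downstream of Kynu, had 799 units in SHR and 720 in WKY at 1 month, against 853 in SHR and 1039 in WKY at 3 months. Its log2 ratio was thus 0.15 at 1 month and -0.28 at 3 months, where its spots read -0.40 and -0.17, and -0.33 for SHR of 3 months over 1 month. All 4 tryptophan enzymes lay below 0 at 3 months, with a median of -0.12, where 2977 of 5621 genes were below 0. Tdo2 kept its sign there in 10 of 12 alternative settings and Kynu in 11.

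Methionine and the sulfur amino acids were covered by 9 members. Mat1a, the liver form of the enzyme that makes S-adenosylmethionine, had 7829 units in SHR and 8496 in WKY at 1 month, 8539 in SHR and 11257 in WKY at 3 months, and 6764 at 3 months and 8523 at 1 month in SHR. Its log2 ratios were -0.12, -0.40 and -0.33, the second being the lowest of any member at 3 months, although Kynu was lower there without the spots of bright background and with plain subtraction. Bhmt, which remethylates homocysteine with betaine, lay at 0.03, -0.25 and -0.29. Cdo1, the dioxygenase that commits cysteine to breakdown, had 16089 units in SHR and 19635 in WKY at 1 month, 15508 in SHR and 17887 in WKY at 3 months, and 10844 at 3 months and 15162 at 1 month in SHR. It was below 0 on each array in the main setting, at -0.29, -0.21 and -0.48. At 1 month its spots read -0.41 and -0.16, and its sign turned to 0.076 with median centring. At 3 months it was at -0.015 in the authors' values.

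Other enzymes of this route went separate ways. Ahcy, which hydrolyses S-adenosylhomocysteine, was higher in SHR at both ages, with 2246 units in SHR and 1972 in WKY at 1 month and 3514 in SHR and 2918 in WKY at 3 months (log2 0.19 and 0.27), and was at -0.02 with age in SHR. Cbs, which starts transsulfuration of homocysteine to cysteine, was near 0 between strains (-0.01 and 0.06) and had 582 units at 3 months and 433 at 1 month in SHR, a log2 ratio of 0.43. Cth, the next enzyme, lay at 0.03, -0.13 and -0.07. Gnmt, which uses up surplus S-adenosylmethionine, lay at 0.07, -0.01 and -0.05, and Csad, the decarboxylase on the way to taurine, at 0.19, -0.02 and 0.20. Mat2a, the form of the synthetase found in most other tissues, had 2 probes that disagreed. The brighter gave 0.15, -0.04 and -0.10 and the dimmer -0.23, 0.02 and 0.37. In all, 7 of 9 sulfur members were below 0 at 3 months and 7 of 9 on the SHR age array, with medians of -0.04 and -0.07. Of all genes, 2977 of 5621 and 2896 of 5656 were below 0 there. At 3 months Gnmt kept its sign in 9 of 12 alternative settings and Csad in 7.

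Glutamate and the transaminases gave 6 members. Got1, the cytosolic aspartate transaminase, had the largest strain difference after Kynu and Aldh1l1 at 1 month. It had 5259 units in SHR and 7237 in WKY at 1 month, a log2 ratio of -0.46 (spots -0.51 and -0.42), and 7228 in SHR and 7270 in WKY at 3 months, a log2 ratio of -0.01. On the SHR age array it was at 0.10. Its mitochondrial counterpart Got2 had 1009 units in SHR and 896 in WKY at 1 month and 952 in SHR and 1034 in WKY at 3 months, log2 ratios of 0.17 and -0.12, and was at -0.01 with age in SHR. Gpt, alanine transaminase, was at 0.01, -0.23 and 0.25. Glud1, glutamate dehydrogenase, was at -0.10, -0.05 and -0.14. Gls2, the liver glutaminase of periportal cells, was at -0.30, -0.07 and -0.23, and Glul, the glutamine synthetase of pericentral cells, at 0.04, -0.07 and 0.01. All 6 were below 0 at 3 months, 5 of them between 0 and -0.2, where 2977 of 5621 genes were below 0. The sign at 3 months was kept in 7 of 12 alternative settings for Got1, in 10 for Glud1 and in 11 for Glul.

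The branched-chain amino acids are oxidised by a mitochondrial dehydrogenase complex. Bckdha, its E1 alpha subunit, was above 0 on each array. It had 28462 units in SHR and 22473 in WKY at 1 month, 31623 in SHR and 24052 in WKY at 3 months, and 24944 at 3 months and 19126 at 1 month in SHR. The log2 ratios were 0.34, 0.39 and 0.38, and both spots were above 0 on each array. Bckdhb, the E1 beta subunit of the same complex, did not share this, at -0.05, 0.06 and 0.15. Bckdk, the kinase that switches the complex off, had log2 ratios of -0.19 and -0.24 for SHR over WKY and 0.14 with age in SHR. Of the transaminases that start the pathway, Bcat1, the cytosolic form, was at 0.14, 0.14 and 0.20, and Bcat2, the mitochondrial form, at -0.12, -0.25 and 0.13. All 5 members were above 0 on the SHR age array, with a median of 0.15, where 2760 of 5656 genes were above 0. Between the strains, 2 and 3 of 5 were above 0 at 1 and 3 months.

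Bckdha and Bckdhb were among the bright probes, and like Aldh1l1 they were brighter in the second channel of all 3 arrays before normalization. The raw log2 ratio of the second over the first channel was 0.39, 0.49 and 0.36 for Bckdha and 0.29, 0.48 and 0.44 for Bckdhb. With median centring in place of loess, which leaves the dependence of ratios on intensity in the data, Bckdha stood at 0.90, 0.85 and 1.01 and Bckdhb at 0.79, 0.84 and 1.09. Hal, histidine ammonia-lyase, which releases ammonia from histidine, was as bright. It had 28227 units in SHR and 34241 in WKY at 1 month, 35309 in SHR and 43011 in WKY at 3 months, and 25405 at 3 months and 34452 at 1 month in SHR, log2 ratios of -0.28, -0.28 and -0.44, and with median centring its sign turned to 0.42, 0.43 and 0.40.

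**Figure D3:**
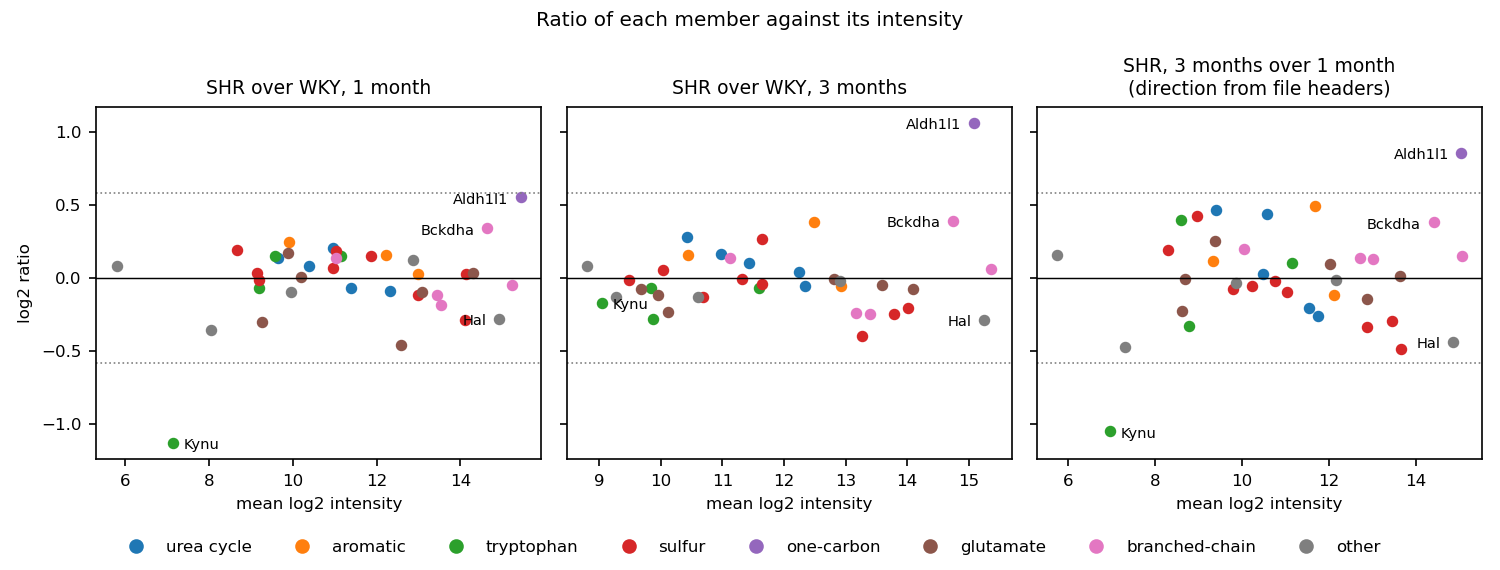
Log2 ratio (vertical axis) of the 38 members against their mean log2 intensity (horizontal axis), 1 panel per array, coloured by pathway, with dotted lines at 1.5-fold. Aldh1l1 lies at the bright end, at log2 intensities of 15.45, 15.09 and 15.05. Kynu lies at the dim end, at 7.15 on the 1-month array and 6.96 on the SHR age array, and at 9.05 on the 3-month array, where the background model raised dim spots.

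The remaining amino acid enzymes were close to 0 or dim. Sds, serine dehydratase, was at -0.10, -0.13 and -0.03, and Oat, ornithine aminotransferase, at 0.12, -0.02 and -0.01. Agxt, the transaminase of glyoxylate and serine, had raw signals of 167.0 in SHR and 407.9 in WKY at 1 month, 150.7 in SHR and 368.0 in WKY at 3 months, and 98.3 at 3 months and 243.4 at 1 month in SHR, over backgrounds of 40.9 to 49.5. Its first channel was the brighter on all 3 arrays, as for Kynu, and its log2 ratios after normalization were -0.36, -0.13 and -0.47. At 3 months its value was -0.32 without the spots of bright background. Dao, D-amino acid oxidase, gave raw signals between 42.8 and 50 units on all arrays. It was not well above background in SHR on either strain array, so no difference is given for it, and it enters the counts above at its measured ratio. The other 37 members were above background in both channels of all arrays.

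Subtracting the log2 ratio of SHR over WKY at 1 month from that at 3 months gives its change with age, in which a channel effect of equal size on both arrays cancels. Its median over the 38 members was 0.00, with 17 above 0, and the median of 5616 genes was 0.01. At 1.5-fold, 1 of 38 members was higher, Kynu at 0.96, where 1.71% of all genes were, and 0 of 38 were lower, where 1.12% were. The change of Kynu was 0.18 without the spots of bright background and turned to -0.090 with plain subtraction, -0.014 without background correction and -0.460 in the authors' values, so it has no settled direction.

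Below that threshold, Aldh1l1 had a change of 0.51 and Got1 one of 0.45, both above 0 in 12 of 12 alternative settings. The range was 0.19 to 0.52 for Aldh1l1 and 0.29 to 0.49 for Got1. The raw signal of Aldh1l1 in SHR was 96.5% of the array's highest value at 1 month and 83.9% at 3 months. None of the settings treats signals near the top of the scale, and their part in its change was not tested. Haao had the lowest change, -0.43, below 0 in 12 of 12 settings between -0.66 and -0.21, and past 1.5-fold in 3 of them. Got2 followed at -0.29, Mat1a at -0.28, Bhmt at -0.28, Gpt at -0.24 and Kmo at -0.22, each below 0 in 12 of 12 settings. The mitochondrial and the cytosolic aspartate transaminase thus had changes of opposite sign. Tat had 0.22 and Asl 0.15, both above 0 in 12 of 12 settings. Settings that change the filter on dim spots or average over probes return the main value for a single probe present in both channels. The same sign in 12 of 12 settings is thus not 12 separate checks. Among the pathways, sulfur members had a median change of -0.17 with 3 of 9 above 0, tryptophan members -0.11 with 1 of 4 above 0, and urea cycle members 0.03 with 4 of 5 above 0. Of all 5616 genes, 2909 were above 0.

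**Figure D4:**
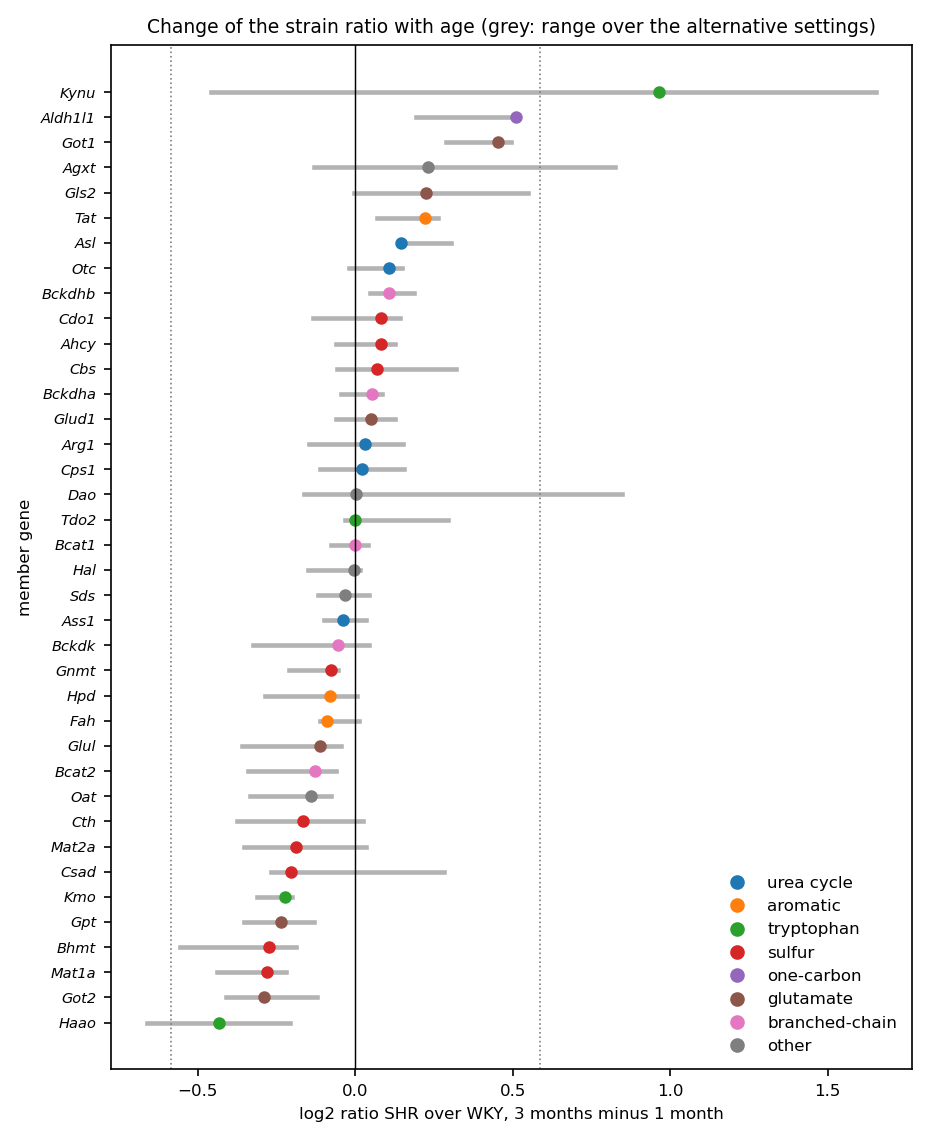
Change of the log2 ratio of SHR over WKY, 3 months minus 1 month (horizontal axis), for the 38 members sorted by value (points, coloured by pathway). Grey bars span the alternative settings and dotted lines mark 1.5-fold. The bar of Kynu crosses 0, from -0.46 to 1.65, while those of Aldh1l1, Got1, Haao and Got2 lie on 1 side of 0.

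A further 127 genes of the same pathways were looked up, and a ratio was obtained for 65 of them at 1 month, 64 at 3 months and 65 on the SHR age array. At 1.5-fold, 0 of 65 were higher and 0 lower in SHR at 1 month, 0 of 64 were higher and 0 lower at 3 months, and 0 of 65 were higher and 3 lower at 3 months than at 1 month in SHR. Those 3 are 4.62%, against 5.39% of all genes on that array, so in number they do not stand out from it. The median log2 ratios of the further genes were -0.11, -0.07 and -0.06. The 3 genes lower at 3 months than at 1 month in SHR were Hibadh, Pemt and Klf15.

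Hibadh, an enzyme of valine breakdown, had 622 units at 3 months and 1054 at 1 month in SHR, a log2 ratio of -0.76. Pemt, which makes phosphatidylcholine with S-adenosylmethionine, had 8486 units at 3 months and 13524 at 1 month, a log2 ratio of -0.67. Klf15, a transcription factor of amino acid breakdown, had 137 units at 3 months and 217 at 1 month, a log2 ratio of -0.66. In the direction of the dye labels all 3 would be higher at 3 months. Klf15 was dim, at a log2 intensity of 7.43 on that array, where Kynu had 6.96. For SHR over WKY all 3 lay below 0 in the main setting. Hibadh was at -0.33 and -0.45, Pemt at -0.14 and -0.28, and Klf15 at -0.58 and -0.13 at 1 and 3 months. Over 12 alternative settings Pemt ranged between -0.15 and 0.18 at 1 month, and Klf15 between -0.59 and 0.13 at 3 months.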

How the data were processed

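Liver RNA of male SHR and pooled WKY rats was hybridised to 3 spotted 2-colour arrays, 10 µg per labelling, per the labels. How many animals gave each RNA is not stated in the labels. The deposited files hold, per the file headers, raw and local background intensity for each spot and channel, a net intensity and a ratio of both channels. The deposited value table holds log2 values of the authors without a stated scale, centring or direction. Set against the deposited ratios they ran as log2 of the second over the first channel, with a median absolute difference of 0.0016, 0.0033 and 0.0035, a rank correlation of 0.92, 0.90 and 0.93 and a Pearson correlation of 0.52, 0.063 and 0.62 over spots. Their medians were 0.0028, 0.0225 and 0.0202. They served as an alternative.

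Raw intensities were corrected for background with normexp (offset 50) and ratios were normalized by loess (span 0.3) within each array, with limma 3.58.1 in R 4.3.3. Before loess the median log2 ratio of net signals was -0.57, -0.65 and -0.73. Loess removes the trend of ratios with intensity, so each value is relative to genes of similar intensity on its array. Spots over background by 2 SD in at least 1 channel were kept, the 2 spots of a probe averaged and the brightest probe of a gene used. Of 5697 probes, 2726 were named by accession, 1052 by current symbol, 518 by synonym and 6 by a former symbol of a member from RefSeq tables. Tables and figures used Python 3.11.15, numpy 2.4.6, pandas 2.3.3 and matplotlib 3.10.9. The steps were tested on simulated data.

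With 1 array per comparison no test was run, and a gene was counted when at least 1.5-fold apart. All measured members are named, and of the further genes those past 1.5-fold on an array. A gene that this rule takes is not reported here, and the counts of further genes leave it out. The members and lists were chosen with earlier results of these data known. The number of arrays limits the precision of every value.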

Additional observations from a re-analysis of the deposited data

Results flagged for a closer look

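For 2 members the ratio of SHR over WKY lay on opposite sides of 0 at both ages by more than 2 times the pooled SD between spots of a probe (0.046 at 3 months and 0.056 at 1 month). Haao had a log2 ratio of -0.28 at 3 months and 0.15 at 1 month, a change of -0.43. Got2 had -0.12 at 3 months and 0.17 at 1 month, a change of -0.29. Each age is 1 array, so the difference between ages was not tested. Haao at 3 months was at -0.44 without the spots of bright background and at -0.49 with plain subtraction. With median centring Haao was at -0.34 at 3 months and -0.13 at 1 month, and Got2 at -0.19 at 3 months and -0.07 at 1 month, so that both ages were then on 1 side of 0.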

How the results depend on the processing

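Results were recomputed under 11 other settings and 1 more chosen after seeing the data, which left spots of bright local background out of the background model. The settings are not independent. Those that change the filter on dim spots or average over probes return the main value for a single probe present in both channels. Each spot alone is a part of the main mean. At 1.5-fold, 1 member passed at 1 month, against 6 with median centring and 2 with the first spot alone. At 3 months 1 passed, against 2 with plain subtraction, 2 without background correction, 2 without spots of bright background, 3 with median centring and 3 in the authors' values. On the SHR age array 2 passed, against 3 with normexp offset 0, 3 with plain subtraction, 7 with median centring and 4 in the authors' values. For the change with age 1 passed, against 2 with plain subtraction, 2 with median centring and 0 in the authors' values. The 1 was Kynu in the main setting, but Haao without background correction (-0.61) and without spots of bright background (-0.59). With plain subtraction the 2 were Haao (-0.66) and Dao, which was not well above background. The median of the members on the SHR age array was 0.001, against 0.075 in the authors' values. The change of Kynu reversed to -0.090 with plain subtraction, -0.014 without background correction and -0.460 in the authors' values; the cause was not tested. No paired analysis was possible because each comparison had 1 array. Leaving out a replicate could not be run for the same reason. Signal over background limits Kynu, Agxt and Dao, and the top of the scanner scale limits Aldh1l1. The units added to spots of the 3-month array also shrank the ratios of other dim members there. Haao was at -0.28, against -0.44 without spots of bright background and -0.49 with plain subtraction. In that order Asl was at 0.28, 0.39 and 0.42 and Gpt at -0.23, -0.32 and -0.34.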
